A study of Homo sapiens with 24 samples.

Results

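MT-CO1 is the mitochondrial mRNA for COX1, and it is the 1 transcript described here of the 37 human mitochondrial transcripts that were profiled. It was chosen by its name in the deposited table, where it holds 1542 of 15416 transcript positions. The 37 transcripts are 13 mRNAs, 2 rRNAs and 22 tRNAs. Ribose 2′-O-methylation was profiled in 4 lines. All derive from HEK293T Flp-In T-REx, an established human line of embryonic kidney origin that holds a site for inserting transgenes. They are the parental line and lines lacking MRM1, MRM2 or MRM3 (MRM1KO, MRM2KO and MRM3KO), each with 3 culture plates. The p-values thus rest on how much plates of a line differ. RNA from the mitochondria-enriched fraction of each plate was broken at alkaline pH, ligated to an adaptor, and divided for reverse transcription (RT) at 2 μM or at 500 μM dNTPs, which gave 24 libraries. The MRM2KO cells are a clonal line made with zinc finger nucleases and were kept with more serum and added uridine according to the methods, while the MRM1KO and MRM3KO lines were provided by other people. Line, origin and medium therefore cannot be told apart, and the medium of the profiled plates is not stated for each line. The genotype field of 18 of the 24 samples names another line than the title, and the titles were followed.

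COX1 is the catalytic core subunit of cytochrome c oxidase, or complex IV, the last enzyme of the respiratory chain. It holds the heme groups and one of the copper centres at which oxygen is reduced to water. The mRNA is cut out of a long precursor transcribed from mitochondrial DNA, in which tRNAs flank most of the other RNAs, and it is translated by the mitochondrial ribosome. MRM1, MRM2 and MRM3 are methyltransferases of the 16S mt-rRNA, the large rRNA of that ribosome. They are encoded in the nucleus, so their own transcripts are not among the RNAs aligned here.

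MT-CO1 lies on the plus strand of the mitochondrial chromosome (GRCh38) at chrM:5904-7445, is 1542 nucleotides long without an intron, and is annotated as coding sequence throughout. Its start codon is thus its first 3 nucleotides. The annotation places MT-TY, the tyrosine tRNA, on the opposite strand, ending 12 nucleotides before MT-CO1. MT-TS1, a serine tRNA on the opposite strand, begins right after it with a gap of 0 nucleotides, and is followed on the plus strand by MT-TD, the aspartate tRNA, and by MT-CO2. Positions are counted from 1 at chrM:5904. The sequences printed here, from the reference, are the start of the mRNA, where the largest share of fragments began, with its start codon in capitals, and the 5 residues with the highest parental RT-stop score, which compares stops of reverse transcription at 2 μM with those at 500 μM. These residues are in capitals within 10 nucleotides on either side.
Start of MT-CO1, chrM:5904-5933: AUGuucgccgaccguugacuauucucuaca
Adenosine 163, chrM:6056-6076: ccacaucuacAacguuaucgu
Adenosine 148, chrM:6041-6061: ccuucuagguAacgaccacau
Adenosine 1478, chrM:7371-7391: auaaaccuggAgugacuauau
Adenosine 1045, chrM:6938-6958: cuuucuuuucAccguaggugg
Guanosine 481, chrM:6374-6394: uaucuuagggGccaucaauuu

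A read is counted here as the 5′ end of a sequenced fragment within the transcript. Libraries held 162673 to 807322 reads at 500 μM and 483960 to 4048537 at 2 μM, with the MRM2KO libraries the shallowest at either level by their medians. At 500 μM MT-CO1 had 36252, 27993 and 25893 reads in the parental libraries and 13274, 18508 and 10202 in MRM1KO. It had 7069, 5366 and 5260 reads in MRM2KO and 8476, 10925 and 23458 in MRM3KO. The 2 μM libraries held 151812, 91666 and 63265 MT-CO1 reads in parental, 51833, 45936 and 18815 in MRM1KO, 21793, 11527 and 8863 in MRM2KO, and 17259, 22763 and 71203 in MRM3KO. No fewer than 5260 reads thus stood behind any MT-CO1 level. Reads were amplified and carry no molecular identifiers, so that these numbers do not count independent molecules.

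MT-CO1 made up about the same share of the mRNA reads in parental and MRM1KO libraries, a smaller share in MRM2KO and the smallest in MRM3KO. At 500 μM it took 35.3%, 35.5% and 35.2% of the reads of the 13 mRNAs in parental libraries (35.3% ± 0.133, SD, n = 3). In MRM1KO the share was 35.0%, 34.9% and 34.1% (34.7% ± 0.484). In MRM2KO it was 25.0%, 23.8% and 24.5% (24.4% ± 0.616), and in MRM3KO 21.1%, 20.6% and 21.3% (20.99% ± 0.342). The order of the lines was thus parental, MRM1KO, MRM2KO and MRM3KO, and no neighbours in it overlapped. The difference of MRM1KO was small beside the others. Each knock-out gave p = 0.1 in the exact two-sided permutation test, which is the smallest value that 3 against 3 libraries can give.

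The 2 μM libraries, which repeat the same ligated RNA and are not independent of the first, gave a like order with lower shares. MT-CO1 took 28.2%, 29.2% and 28.6% of the mRNA reads in parental libraries and 28.9%, 30.01% and 26.7% in MRM1KO, which overlapped (exact permutation p = 0.9). It took 20.9%, 20.98% and 19.4% in MRM2KO and 17.2%, 16.4% and 14.9% in MRM3KO. Neither of these lines overlapped with parental (exact permutation p = 0.1 each).

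**Figure D1:**
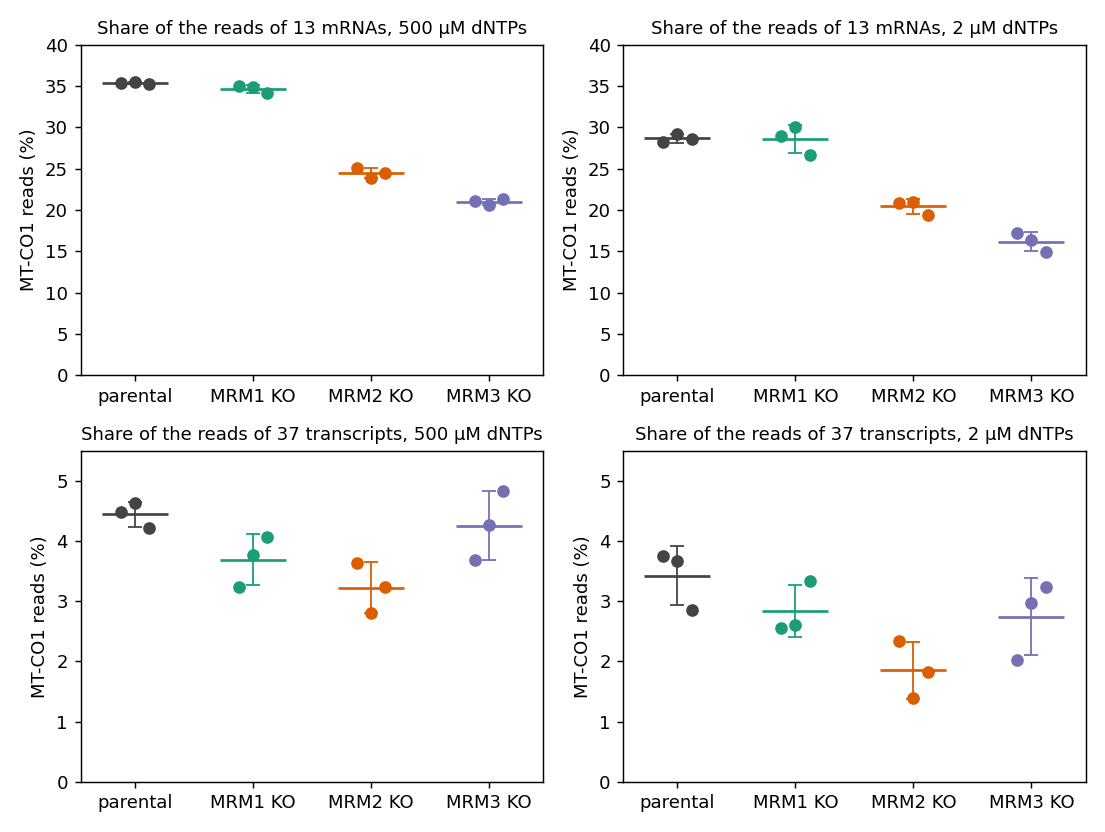
MT-CO1 reads as a percentage of mRNA reads and of all reads (vertical axes), by line and dNTP level; points are libraries (3 per line), horizontal lines their means and whiskers the SD. At 500 μM the MRM2KO libraries (23.8% to 25.0%) and the MRM3KO libraries (20.6% to 21.3%) lay below all parental ones (35.2% to 35.5%) among mRNA reads, while as a percentage of all reads MRM3KO overlapped with parental.

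Measured against all reads, in which the rRNAs and tRNAs are included, the order was another. At 500 μM the share of MT-CO1 was 4.49%, 4.63% and 4.22% in parental libraries, 3.24%, 3.77% and 4.07% in MRM1KO, 3.64%, 2.80% and 3.23% in MRM2KO, and 3.68%, 4.26% and 4.83% in MRM3KO. The MRM1KO and MRM2KO libraries lay below all parental ones (exact permutation p = 0.1 each), while those of MRM3KO overlapped with them (exact permutation p = 0.7). From highest to lowest mean the order was parental, MRM3KO, MRM1KO and MRM2KO, and each line overlapped with its neighbours in it. The mRNAs together took 12.6% of all reads in parental libraries, 10.7% in MRM1KO, 13.2% in MRM2KO and 20.3% in MRM3KO (means, n = 3). The MRM3KO libraries thus held a larger part of mRNA as a whole, with a smaller part of MT-CO1 within it. At 2 μM the share of all reads was 3.75%, 3.67% and 2.86% in parental and 2.34%, 1.39% and 1.83% in MRM2KO, without overlap (exact permutation p = 0.1), whereas MRM1KO (exact permutation p = 0.2) and MRM3KO (exact permutation p = 0.3) overlapped with parental. Shares sum to a whole, and in a fraction of RNA fewer cells or less RNA per cell cannot be told apart.

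Levels were then compared in 1 fit of all 37 transcripts for each dNTP level, with reads scaled by TMM, which assumes that most transcripts do not change, and tested with edgeR's quasi-likelihood test against parental with Benjamini-Hochberg adjustment. MT-CO1 fell in MRM2KO at 500 μM, by 1.19 ± 0.303 on the log2 scale (SE, n = 3 against 3, adjusted p = 0.00198), in a comparison where 13.5% of the transcripts were called. At 2 μM it fell by 1.14 ± 0.379 (adjusted p = 0.0268), where 18.9% were called. This 2 μM call was lost without parental replicate 1 or 2 or MRM2KO replicate 2 or 3, with values between -1.18 and -0.99. The edgeR value was -0.23 ± 0.299 in MRM3KO at 500 μM (adjusted p = 0.582), where 40.5% of the transcripts were called, and -0.45 at 2 μM (adjusted p = 0.441), where 16.2% were called. In MRM1KO it was -0.50 ± 0.300 at 500 μM (adjusted p = 0.431) and -0.41 at 2 μM (adjusted p = 0.625). In that line edgeR called 0% of the transcripts at either level, with 2 and 0 of 37 at an unadjusted p under 0.05.

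The size of these changes depended on the scaling. The rRNAs took 79.3% of all reads in parental libraries at 500 μM, 79.1% in MRM1KO, 71.1% in MRM2KO and 71.6% in MRM3KO, and the tRNAs 8.15%, 10.3%, 15.7% and 8.11% in the same order. In MRM2KO at 500 μM the median log2 change of all 37 transcripts was 0.01 with TMM and 0.73 with scaling to total reads. The MT-CO1 value moved with it, from -1.19 to -0.46 (adjusted p = 0.0136 in edgeR with total reads). Relative to the median transcript it was -1.20 under either scaling. In MRM3KO it stood at -0.07 relative to that median with TMM and at -0.20 with total reads, and in MRM1KO at -0.42 and -0.46. MT-CO1 had the lowest log2 change of the 13 mRNAs in MRM2KO and in MRM3KO at both dNTP levels, with 0 mRNAs lower under either scaling. In MRM1KO at 500 μM 4 mRNAs had a lower change with TMM and 5 with total reads, and at 2 μM 8 did with either.

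Fitting the 13 mRNAs alone sets MT-CO1 against the other mRNAs only. In this fit edgeR gave a log2 change of -0.81 ± 0.0319 (SE) in MRM2KO at 500 μM (adjusted p = 1.29e-12), where 84.6% of the mRNAs were called, and of -0.74 at 2 μM (adjusted p = 3.39e-06), where 76.9% were called. In MRM3KO it gave -1.02 ± 0.0318 at 500 μM (adjusted p = 4.07e-14), where 61.5% were called, and -1.16 at 2 μM (adjusted p = 1.19e-08), where 84.6% were called. In MRM1KO it gave -0.03 ± 0.0314 (adjusted p = 0.519) and 0.02 (adjusted p = 0.893), where 7.69% of the mRNAs were called at either level, that is 1 of 13. With most mRNAs called in MRM2KO and MRM3KO, being called does not set MT-CO1 apart, whereas its size was the largest fall in MRM2KO and MRM3KO at both levels in this fit. The p-values here are adjusted over the 13 mRNAs of the fit. As MT-CO1 took 14.9% to 35.5% of their reads, a lower MT-CO1 share by itself raises the shares of the others.

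Within complex IV, MT-CO1 fell relative to both other mitochondrially encoded subunits, MT-CO2, which holds the copper centre that takes electrons from cytochrome c, and MT-CO3, the remaining core subunit. In parental libraries at 500 μM MT-CO1 had an RPKM (reads scaled to transcript length and to all reads of the library) of 28847 ± 1339, MT-CO2 22674 ± 827 and MT-CO3 15870 ± 652 (SD, n = 3). Per nucleotide the ratio of MT-CO1 to MT-CO2 was 1.27 in parental, 1.23 in MRM1KO, 1.12 in MRM2KO and 0.960 in MRM3KO (means, n = 3). The ratio to MT-CO3 was 1.82, 1.73, 0.901 and 0.968 in the same order. All 3 knock-outs lay below parental without overlap in both ratios (exact permutation p = 0.1 each). At 2 μM the ratio to MT-CO2 was 0.941 in parental, 0.844 in MRM1KO, 0.861 in MRM2KO and 0.779 in MRM3KO, and only MRM3KO did not overlap with parental. The ratio to MT-CO3 was 1.39, 1.32, 0.723 and 0.718, with MRM2KO and MRM3KO below parental without overlap. In the fit of the mRNAs at 500 μM, MT-CO2 fell by 0.62 in MRM2KO and by 0.61 in MRM3KO, while MT-CO3 rose by 0.20 in MRM2KO and fell by 0.11 in MRM3KO (all called by edgeR). In the fit of all 37 transcripts with TMM, MT-CO3 was at -0.18 in MRM2KO and 0.67 in MRM3KO, and MT-CO2 at -1.01 and 0.19. With total reads MT-CO3 was at 0.54 in MRM2KO (adjusted p = 0.0076 in edgeR) and 0.84 in MRM3KO. MT-CO2 was then at -0.28 (adjusted p = 0.0959 in edgeR) and 0.35. Only the fall of MT-CO2 in MRM2KO thus kept its direction throughout, and it was not called with total reads.

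Per nucleotide MT-CO1 ranked first among the 13 mRNAs in the parental and MRM1KO libraries at 500 μM, at rank 2 or 3 in MRM2KO and at rank 4 or 5 in MRM3KO. Its RPKM was 23949 ± 2718 in MRM1KO, 20911 ± 2741 in MRM2KO and 27613 ± 3708 in MRM3KO (SD, n = 3). On the mean it was passed in MRM3KO by MT-ND4L, a membrane subunit of complex I, at 32098 ± 2411, by MT-CO2 at 28822 ± 4086 and by MT-CO3 at 28460 ± 2854. MT-ND4L and MT-ND4, like MT-ATP8 and MT-ATP6, share nucleotides in the genome, so their reads may be split between them.

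**Figure D2:**
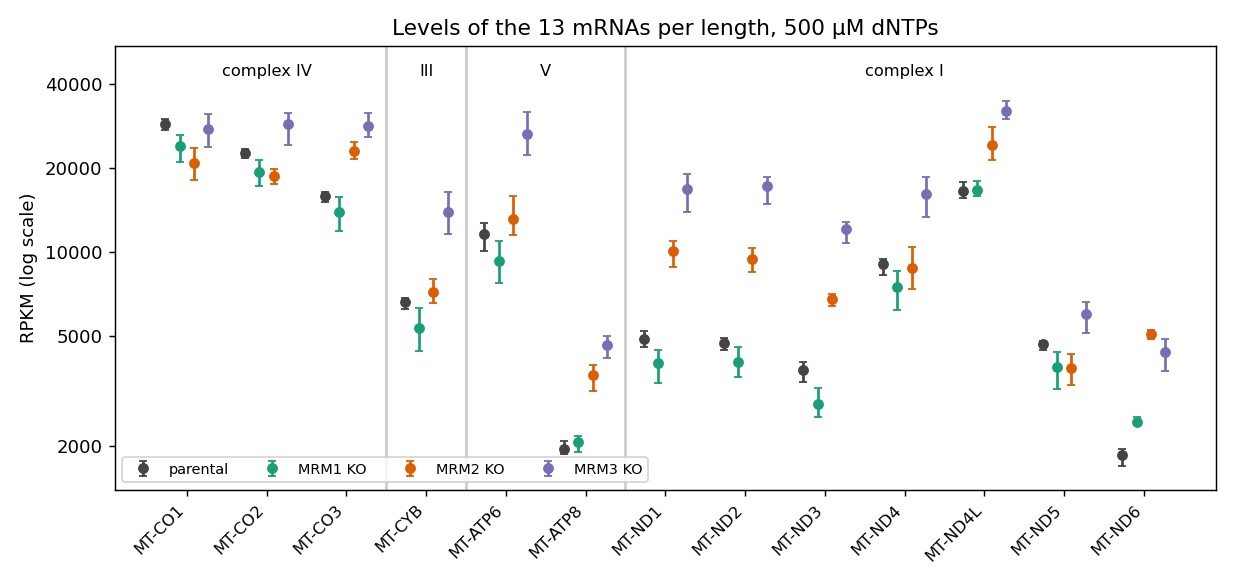
RPKM (vertical, log axis) of the 13 mRNAs at 500 μM by line; points are means of 3 libraries and bars run from the lowest to the highest library. MT-CO1 is the highest mRNA in parental (28847) and MRM1KO (23949), and lies below MT-ND4L, MT-CO2 and MT-CO3 in MRM3KO.

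The mRNAs of the other complexes differed between the knock-outs in the fit of all 37 transcripts at 500 μM. In MRM3KO 8 of the 13 mRNAs rose and 0 fell, and with total reads 10 rose and 0 fell. The 8 were MT-ND1 (1.64), MT-ND2 (1.71), MT-ND3 (1.51), MT-ND4L (0.77) and MT-ND6 (0.99) of complex I, MT-CYB (0.91) of complex III, and MT-ATP8 (1.03) and MT-ATP6 (1.04) of the ATP synthase, all as log2 changes. MT-CO1 was the 1 mRNA of 13 with a negative value in MRM3KO, under both scalings. In MRM2KO 3 mRNAs fell and 0 rose with TMM. These were MT-CO1, MT-CO2 (-1.01) and MT-ND5 (-1.01), the latter a proton-pumping subunit of complex I. With total reads 1 fell, MT-CO1, and 7 rose, among them MT-CO3, whose value turned from -0.18 to 0.54. In MRM1KO 0 mRNAs were called in either direction with either scaling in edgeR. At 2 μM the TMM fit called MT-CO1 lower as the 1 mRNA in MRM2KO, and MT-ND1, MT-ND2 and MT-ND3 higher in MRM3KO.

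Of the 2 rRNAs, the 12S MT-RNR1 changed by -1.01 and the 16S MT-RNR2 by -0.79 in MRM2KO with TMM, both called. The size of these falls depended on the scaling, as the median transcript in MRM2KO was at 0.01 with TMM and at 0.73 with total reads. As a share of all reads at 500 μM, the rRNAs took 79.3% in parental and 71.1% in MRM2KO. In MRM3KO, also with TMM, MT-RNR2 fell by 1.00, while MT-RNR1 was at 0.17 (adjusted p = 0.582 in edgeR). Of the neighbouring tRNAs, MT-TD fell by 1.06 in MRM3KO (adjusted p = 0.0021 in edgeR), and MT-TY (-0.49), MT-TC, the cysteine tRNA (-0.29), and MT-TS1 (-0.51) did not pass. In MRM2KO none of the 4 passed, with MT-TY at 0.12, MT-TS1 at 0.13, MT-TD at 0.16 and MT-TC at -0.56. The transcripts whose log2 level was most like that of MT-CO1 over the 12 libraries at 500 μM were MT-ND5 (Pearson r = 0.804), MT-CO2 (0.786) and MT-RNR1 (0.667). These values describe libraries that share plates and scaling.

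The 2 dNTP levels gave different levels of MT-CO1 from the same ligated RNA. In a fit of all 24 libraries with the plate as block, the log2 value at 2 μM against 500 μM was -0.75 ± 0.146 in parental (adjusted p = 0.000337 in edgeR) and -0.62 in MRM1KO (adjusted p = 0.00161). It was -0.75 in MRM2KO (adjusted p = 0.000221) and -1.32 in MRM3KO (adjusted p = 4.95e-07). The share of all transcripts called in these comparisons was 64.9%, 62.2%, 62.2% and 75.7% in the same order. The MRM1KO value rested on the set of libraries, since TMM gave -0.22, -0.05 and 0.03 without MRM1KO replicate 1, 2 and 3, none of them called. With total reads the values were -0.39 in parental, -0.39 in MRM1KO, -0.82 in MRM2KO and -0.65 in MRM3KO, all called. The parental call was lost without parental replicate 3 under either scaling (-0.48 with TMM and -0.30 with total reads), and that of MRM1KO without MRM1KO replicate 2 with total reads (-0.31). Tested directly, the difference of the dNTP effect from parental was 0.14 in MRM1KO (adjusted p = 0.916 in edgeR), -0.00 in MRM2KO (adjusted p = 0.998) and -0.57 in MRM3KO (adjusted p = 0.189). In these tests edgeR called 0% of the transcripts in each knock-out, with 1, 6 and 6 of 37 at an unadjusted p under 0.05.

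Fragments of MT-CO1 were longer at 500 μM than at 2 μM. Their mean length at 500 μM, as coverage divided by reads, was 124, 122 and 140 nucleotides in parental libraries and 145, 135 and 136 in MRM1KO. It was 144, 145 and 147 in MRM2KO and 143, 139 and 121 in MRM3KO. At 2 μM it was between 53.0 and 57.3 nucleotides in all 12 libraries. Only the MRM2KO libraries lay above all parental ones at 500 μM, and the limma test on log2 length over 33 transcripts gave 0.18 (adjusted p = 0.0591) with 9.09% of the transcripts called. Without parental replicate 3 the same test gave 0.24 (adjusted p = 0.00931). With all libraries, 23 of the 33 transcripts in MRM2KO had an unadjusted p under 0.05 in limma, with a median log2 difference of 0.12. Over all mRNAs the mean length was 127 nucleotides in parental and 143 in MRM2KO, so that longer fragments were not particular to MT-CO1. MRM1KO (0.11, adjusted p = 0.254 in limma) and MRM3KO (0.06, adjusted p = 0.673) did not pass. In these lines limma called 0% of the transcripts each, with 3 and 2 of 33 at an unadjusted p under 0.05.

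All of MT-CO1 was covered in each library, but thinly at some positions in the shallower ones. At 500 μM the median coverage per position was 2205 to 2873 in the parental libraries and 466 to 661 in MRM2KO. It peaked in parental libraries at positions 1100 to 1106 with 4174 to 5473 reads, and was lowest at the last position, 1542, with 81 to 125 reads. The profile differed with the dNTP level. Relative to the mean of the transcript, coverage in parental libraries was 1.73 at positions 1001 to 1100 at 500 μM and 0.765 at 2 μM, and 0.854 and 0.370 at positions 401 to 500. At positions 801 to 900 it was 0.928 at 500 μM and 1.64 at 2 μM.

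**Figure D3:**
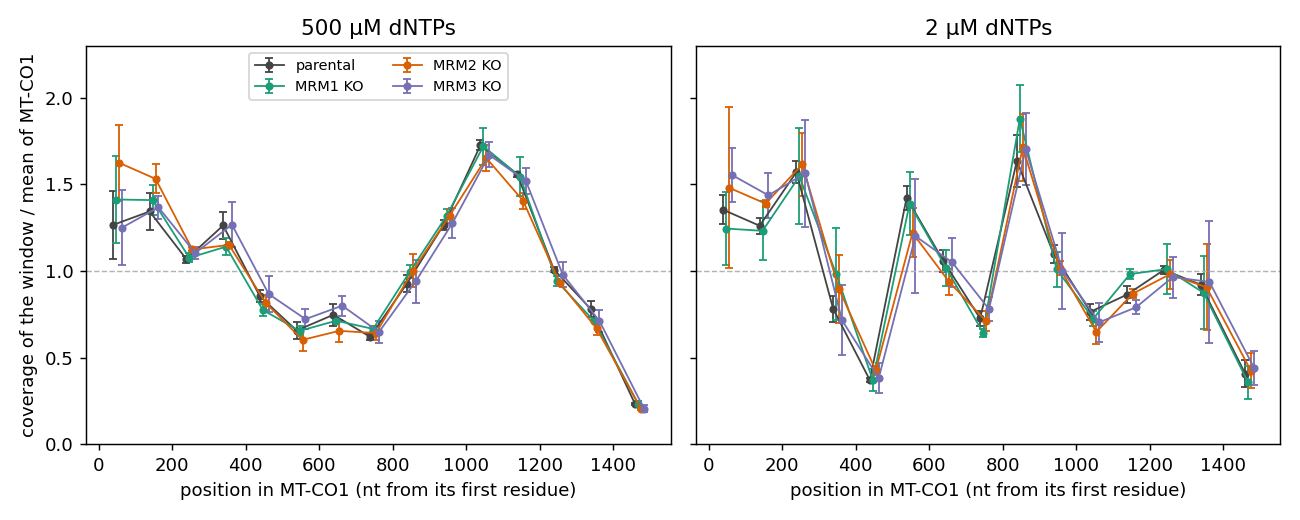
Coverage of MT-CO1 in windows of 100 nucleotides relative to its mean (vertical axis) against the position in the mRNA (horizontal axis, nucleotides), at 500 μM and at 2 μM; points are the means of 3 libraries of each cell line and whiskers the SD. The 4 cell lines follow a like course within a dNTP level. At positions 1 to 100 their means at 500 μM run from 1.25 in MRM3KO to 1.63 in MRM2KO. At positions 1001 to 1100 parental coverage is at 1.73 at 500 μM but 0.765 at 2 μM.

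The first annotated position of the mRNA was the most frequent start of reads. In parental libraries at 500 μM, 15.5% of the MT-CO1 reads began within positions 1 to 100 and 0.741% within positions 1401 to 1542, the highest and lowest windows. Both ends of a counted fragment lay within the transcript, so only fragments short enough to end by position 1542 could begin in the last window. The high first window rested on position 1. With that position left out it held 9.74%, below the 11.9% of positions 1001 to 1100. At 2 μM the highest windows were positions 101 to 200 with 12.4% and 501 to 600 with 12.2%, and the lowest was again 1401 to 1542, with 2.42%. Position 1, the A of the start codon printed above, was the single position with most 5′ ends at either level, with 6.37% ± 2.53 at 500 μM and 3.79% ± 0.394 at 2 μM in parental libraries (SD, n = 3). At 500 μM its share was 8.54% in MRM1KO, 10.98% in MRM2KO and 6.80% in MRM3KO, and each line overlapped with parental. Whether fragments that reach past the annotated end were clipped to position 1 is not stated. The next parental positions at 500 μM were 994 with 0.627%, 877 with 0.464%, 995 with 0.402% and 61 with 0.397%. At 2 μM they were 164 with 2.80%, 302 with 1.75%, 165 with 1.68% and 932 with 1.49%. Position 164 directly follows adenosine 163, and each of the other 3 positions at 2 μM also follows an adenosine.

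Few differences between lines in the spread of 5′ ends along the mRNA passed the threshold. Windows of 100 nucleotides were compared between lines by edgeR with the transcript's own total as offset, over 136 windows of 14 transcripts. In MRM2KO 6.62% of all windows were called, and 1 of the 15 of MT-CO1. This was positions 1301 to 1400, whose share fell from 2.41% to 1.88% of the reads, a log2 change of -0.35 ± 0.0971 (SE, adjusted p = 0.0498). The last window, 1401 to 1542, was at 0.435% against 0.741% (adjusted p = 0.0520 in edgeR). Fragments that begin in it must also end by position 1542, and the mean length was 145 nucleotides in MRM2KO and 129 in parental. The part of fragment length in these shares was not tested. The call was lost when position 1 was left out, and also without parental replicate 1 or 2 or MRM2KO replicate 2 or 3, while 3 windows were called without parental replicate 3. At an unadjusted p under 0.05 edgeR gave 6 of the 15 MT-CO1 windows in MRM2KO, beside 51 of all 136. Of the 6, positions 1 to 100 were higher (0.35) and the others lower, down to -0.77 at 1401 to 1542. In MRM1KO and MRM3KO edgeR called 0% of all windows. Of the MT-CO1 windows 0 of 15 were called in either line by edgeR and by limma, with 1 and 2 at an unadjusted p under 0.05 in edgeR.

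The log2 ratio of reads before the midpoint of the mRNA to those after it was 0.21 in parental, 0.25 in MRM1KO, 0.37 in MRM2KO and 0.30 in MRM3KO at 500 μM (means, n = 3). MRM2KO and MRM3KO lay above parental without overlap (exact permutation p = 0.1 each) and MRM1KO overlapped (exact permutation p = 0.8). Without position 1 the ratio was 0.03, 0.00, 0.05 and 0.11 in the same order, and all 3 knock-outs overlapped with parental.

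The RT stops address whether MT-CO1 carries residues at which low dNTPs halt the enzyme, as 2′-O-methylated riboses do. The RT-stop ratio of a residue is the part of the covering fragments that begin 1 nucleotide downstream, and the RT-stop score is the ratio at 2 μM divided by that at 500 μM. In MT-CO1 the stops at 2 μM were found mainly at adenosines. Pooled over the adenosines, the RT-stop ratio in parental libraries was 4.67% ± 0.148 at 2 μM (SD, n = 3), against 0.793% at 500 μM. This is a rate for each residue covered, not the part of all fragments that stopped at adenosines. The other residues differed less between the levels, with 0.576% at 2 μM and 0.712% at 500 μM for cytidine, 0.839% and 0.599% for guanosine, and 0.774% and 0.796% for uridine. Over all 37 transcripts the pooled parental ratio at adenosines was 4.56% at 2 μM and 0.886% at 500 μM.

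The pooled RT-stop ratio at adenosines of MT-CO1 in the knock-outs lay within or close to the parental range. At 2 μM it ranged from 4.53% to 4.83% in parental libraries, from 4.77% to 4.96% in MRM1KO, from 4.71% to 5.04% in MRM2KO and from 4.41% to 4.60% in MRM3KO, so that each line overlapped with parental. The median log2 score of the adenosines was 1.77 in parental, 1.80 in MRM1KO, 1.83 in MRM2KO and 1.69 in MRM3KO, over 387 positions. For the 437 cytidines it was -0.86 in parental and -0.75, -0.33 and -0.56 in MRM1KO, MRM2KO and MRM3KO. For the 234 guanosines it was -0.54 in parental and -0.46, -0.05 and -0.37, and for the 392 uridines -0.38 and -0.36, -0.12 and -0.19, in the same order. The medians of these 3 residues were thus nearest to 0 in MRM2KO, the line with the lowest coverage. The score adds 1 to stops and coverage, and the part of depth in these medians was not tested.

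**Figure D4:**
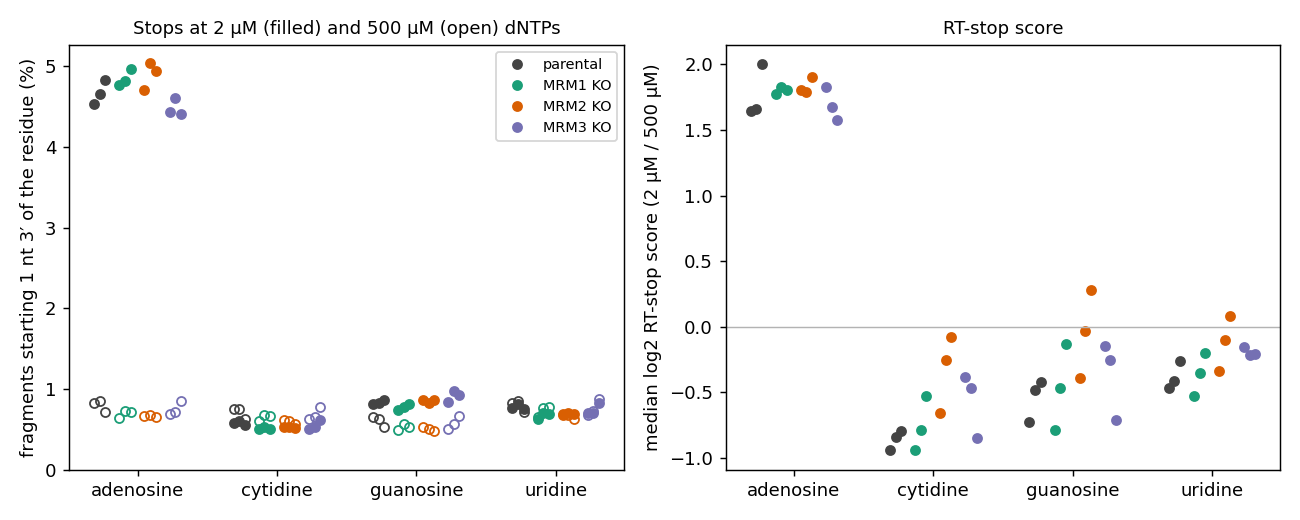
RT-stop ratio of MT-CO1 in percent, pooled over each kind of residue (left vertical axis), at 2 μM (filled) and at 500 μM (open), and the median log2 RT-stop score (right vertical axis), by line. Points are libraries or plates, 3 for each line. Adenosine at 2 μM stands apart at 4.41% to 5.04% in all 12 libraries, while the parental means of cytidine, guanosine and uridine lie between 0.576% and 0.839% at both levels.

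Adenosines also led the list of single residues. Of the 20 MT-CO1 positions with the highest mean parental score 18 were adenosines, or 90% against 26.7% of the positions tested, and of the highest 100 there were 86. The score also differed with the nucleotide before the adenosine, with a median log2 score of 2.37 ± 0.208 (SD over 3 parental plates) for the 85 adenosines after an adenosine, 1.44 ± 0.165 for the 116 after a cytidine, 1.67 ± 0.0482 for the 65 after a guanosine and 1.54 ± 0.0647 for the 120 after a uridine. Among all transcripts, MT-CO1 held 12.1% of the 11971 positions tested and 8 of the 100 highest scores.

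The 5 residues printed above had the highest scores of MT-CO1. Adenosine 163 had a score of 102 ± 20.1 in parental (SD, n = 3), with 53.0% stops at 2 μM against 0.502% at 500 μM. Its scores were 87.5 to 124 in MRM1KO, 52.5 to 210 in MRM2KO and 95.8 to 169 in MRM3KO, and overlapped with the parental ones. Adenosine 148 had 101 ± 23.3 with 58.9% stops at 2 μM in parental. It was at 72.2 to 89.1 in MRM1KO, 64.7 to 542 in MRM2KO and 84.4 to 131 in MRM3KO, all overlapping with parental. The MRM2KO range was the widest there, and the share of stops at 500 μM by which the score is divided was 0% in 1 or more of its plates, so that the score then rests on the constant added. The share at 2 μM was 59.4% ± 3.01 in MRM2KO. Most of the fragments covering adenosine 163 or 148 thus stopped there at 2 μM in parental and MRM2KO cells. Adenosine 1478 had 92.8 ± 62.4 with 38.5% stops in parental, and its scores in each knock-out overlapped with parental. Stops there at 500 μM were 0% in every MRM1KO and MRM2KO plate and in at least 1 parental and 1 MRM3KO plate. Such scores rest on the constant added. Adenosine 1045 had 79.9 ± 2.03 with 22.6% stops in parental, and 57.2 to 218 in MRM1KO, 95.1 to 265 in MRM2KO and 46.5 to 144 in MRM3KO. Guanosine 481, the 1 residue of the 5 that is no adenosine, had 71.8 ± 10.6 with 13.3% stops in parental. It was at 50.3 to 96.0 in MRM1KO, 16.9 to 46.3 in MRM2KO and 54.4 to 114 in MRM3KO. At these last 2 residues MRM2KO did not overlap with parental, with at least 1 MRM2KO plate at 0% stops at 500 μM. Over the positions of all transcripts these 5 ranked 31, 33, 50, 52 and 63, so that 30 residues elsewhere scored higher than any of MT-CO1.

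No residue of MT-CO1 passed the limma test for a change in its RT-stop score in any knock-out. Positions with a coverage of at least 50 in all 24 libraries were tested with limma on the log2 score, 1450 of them in MT-CO1. Of all positions 0.00835% were called in MRM1KO, 0% in MRM2KO and 0.00835% in MRM3KO, and of MT-CO1 0 in each. Real changes could be missed by this test. In simulated stops with 100 positions raised at each size in MRM2KO, limma recovered 8% of 4-fold and 68% of 16-fold rises. On the simulated stop counts edgeR recovered 24% and 57%. Among the unchanged positions limma called 34 and edgeR 2. Falls of the score, which the loss of a methylated ribose would give, were not simulated. At an unadjusted p under 0.05 limma gave 74 MT-CO1 positions (5.10%) in MRM1KO, 256 (17.7%) in MRM2KO and 93 (6.41%) in MRM3KO, beside 7.76%, 14.98% and 6.57% of all positions. The lowest adjusted p of MT-CO1 in limma was 0.438, 0.0863 and 0.248. The median log2 difference of the MT-CO1 positions was 0.09, 0.34 and 0.11, and that of all positions 0.09, 0.29 and 0.10, so that MT-CO1 moved with the rest. By edgeR on the stop counts 0.192%, 1.04% and 0.184% of all positions were called, with 0, 3 and 0 in MT-CO1. The mean scores of the knock-outs followed those of parental cells over the 1450 positions, with Pearson r of log2 scores of 0.937 in MRM1KO, 0.875 in MRM2KO and 0.926 in MRM3KO, as a description over positions that share libraries.

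**Figure D5:**
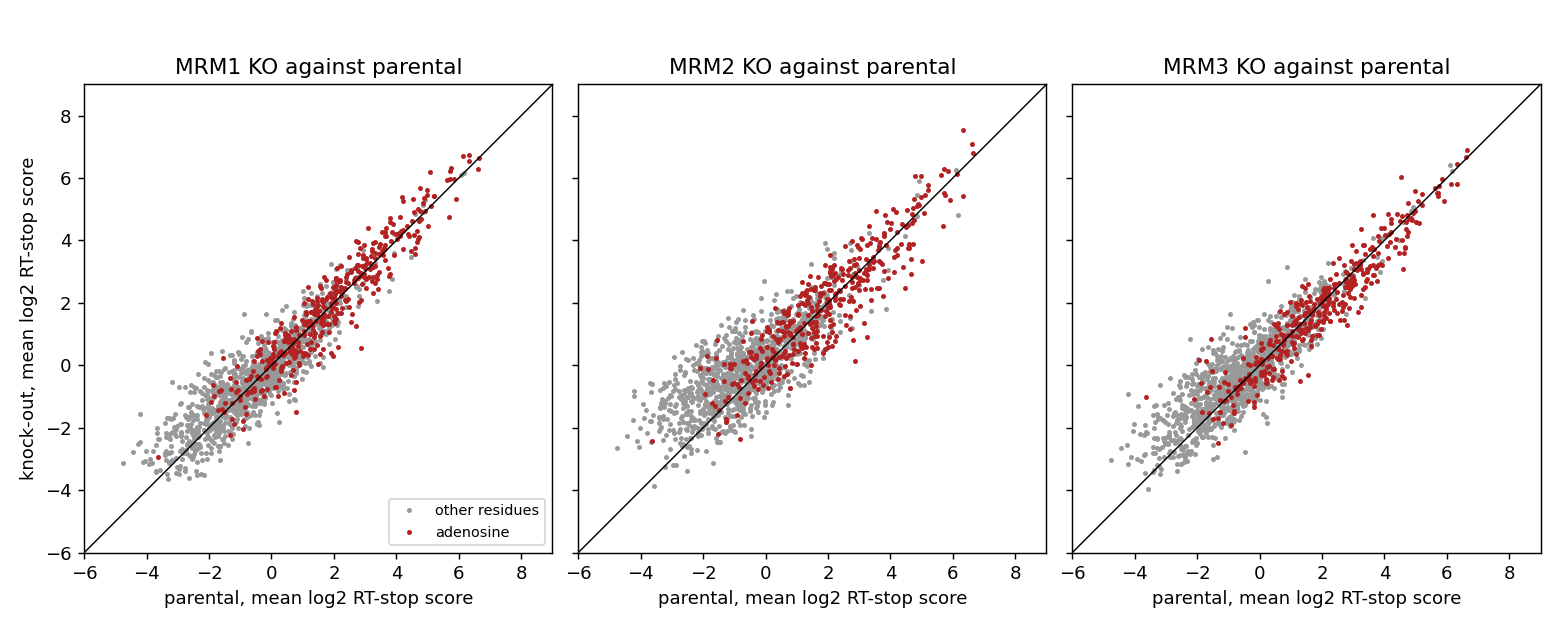
Mean log2 RT-stop score of each of the 1450 tested MT-CO1 positions in a knock-out (vertical axis) against parental (horizontal axis), 1 panel per knock-out, with adenosines in red and the diagonal as a line. The points follow the diagonal (Pearson r 0.937, 0.875 and 0.926), and the adenosines fill the upper end.

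The residues nearest to a change are given by value. In MRM1KO the lowest unadjusted p were those of cytidine 765 (log2 difference 2.52), adenosine 726 (-2.31) and uridine 1427 (2.08), each with an adjusted p of 0.438 in limma. In MRM2KO they were those of uridine 924 (3.11, adjusted p = 0.0863 in limma), the adjoining cytidine 923 (3.03) and adenosine 1386 (-1.79, both at an adjusted p of 0.104). The score of adenosine 1386 was 8.84, 9.92 and 8.15 in parental plates, 2.98, 2.52 and 2.31 in MRM2KO, and 2.82, 2.65 and 4.57 in MRM3KO, where its log2 difference was -1.46 (adjusted p = 0.317 in limma). Both knock-outs are set against the same parental plates. The other residues in MRM3KO were guanosine 1175 (2.43, adjusted p = 0.248 in limma) and adenosine 874 (2.64, adjusted p = 0.344). The 3 positions called by edgeR in MRM2KO were guanosine 427 (2.29, adjusted p = 0.0379), adenosine 72 (2.00, adjusted p = 0.0284) and uridine 853 (1.68, adjusted p = 0.0234), all higher in the knock-out.

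The cleavage protection score, the other measure of 2′-O-methylation, could not be compared between lines in MT-CO1. It needs a median of at least 15 fragment ends at the 6 positions on either side of a residue, and 0 positions of MT-CO1 were scored in all 12 libraries at 500 μM, of 2196 overall. None of the 641 positions with enough scores above 0 for a test lay in MT-CO1. Scores were present for 1120, 977 and 843 MT-CO1 positions in the parental libraries and for 135, 429 and 1 in MRM1KO. They were present for 0 in each MRM2KO library and for 0, 10 and 754 in MRM3KO, so that the number of scored positions rose with the MT-CO1 reads of the library. Of the 815 positions scored in all 3 parental libraries 512 had a mean of 0, and 2 had a mean above 0.5. These were the adjoining cytidine 1126 (chrM:7029), at 0.933 ± 0.0133, and cytidine 1125 (chrM:7028), at 0.904 ± 0.0475 (SD, n = 3). In the libraries outside parental that scored them, they were at 0.868 and 0.869 in MRM1KO replicate 2 and at 0.921 and 0.903 in MRM3KO replicate 3. Cytidine 1126 had 0 fragment ends in every parental library, and cytidine 1125 had 1, 0 and 0. The paper reports 2′-O-methylation in mitochondrial transcripts only at residues of the large rRNA of the mitochondrial ribosome. Whether the lack of ends at these cytidines came from methylation was not tested.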

How the data were processed

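The authors aligned paired reads to the mitochondrial chromosome and deposited, for each transcript position and library, counts of 5′ ends, of 3′ ends and of coverage. STAR 2.5.3a and GRCh38.p13 are named in the submitters' processing notes. The column headed as read ends holds 5′ ends in the direction of the transcript, since coverage follows from the counts only in this way. The deposited cleavage protection scores and RT-stop ratios are fractions made by the authors from these counts. The 10 columns of the authors' own comparisons, which hold p-values of knock-out against parental scores, were not used. The members and lists were chosen with earlier results of these data known.

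The 5′ ends of each transcript were summed to its reads and tested with edgeR 4.0.16 (TMM, quasi-likelihood). All 37 transcripts passed a filter of 10 reads in 3 or more libraries. All 4 lines entered 1 fit per dNTP level, and the comparison of the levels used the plate as block, because both libraries of a plate come from 1 ligated RNA. RT-stop scores with 1 added to stops and coverage, and fragment lengths of the 33 transcripts with at least 100 reads in all 12 libraries, were tested with limma 3.58.1 (trend) in R 4.3.3. Windows of 100 nucleotides, in transcripts with at least 3 windows, were tested with edgeR. Single values were compared by exact two-sided permutation tests. Benjamini-Hochberg adjustment ran over all features of a fit, with a threshold of 0.05. Alternatives used DESeq2 1.42.0, total reads, other filters and constants, a replicate block and each replicate left out. Scripts were tested on simulated data. Figures were drawn with Python 3.11.15 and matplotlib 3.10.9.

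Other transcripts named are the complex IV mRNAs, the other mRNAs by complex, the rRNAs, the nearest neighbours and the 3 most like MT-CO1 by Pearson correlation. Named positions are, per knock-out, those called, or otherwise the 3 with the smallest unadjusted p, the 5 with the highest parental score, the 5 with most 5′ ends at each level, and the highest and lowest windows. The positions called by edgeR and cytidines 1125 and 1126 were named after their values were seen. Of 24 pairs of libraries within a group none were alike within sampling noise (lowest chi-square per degree of freedom 34.6). Sequences were read from the mitochondrial chromosome of GRCh38, whose bases match all 15416 positions.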

Additional observations from a re-analysis of the deposited data

How the results depend on the processing

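Of 349 alternatives over all results, 316 kept the side of the threshold, or the count within 1.5 times. Among these, values that were not called could change sign. In MRM1KO at 2 μM the value went from -0.41 to 0.02 with the 13 mRNAs only. Fits of 37 transcripts leave TMM few features. In MRM3KO the value at 500 μM was -0.57 with the 6 libraries alone (adjusted p = 0.0304 in edgeR), and with the 13 mRNAs only it was -1.02 at 500 μM and -1.16 at 2 μM. Leaving out each replicate in turn gave -1.28 to -1.10 in MRM2KO at 500 μM and -1.43 to -0.99 at 2 μM. With a replicate block the 2 μM value in MRM2KO was -1.16 (adjusted p = 0.0571 in edgeR), and 0 windows of MT-CO1 were called in MRM2KO. Plates of different lines share only a number. The deviations of libraries with the same number correlated between -0.768 and 0.587, and 8 of 18 correlations were over 0.1. The comparison of the dNTP levels in MRM1KO without the replicate block gave -0.61 (adjusted p = 0.0697 in edgeR). Leaving out a replicate gave -0.22 to 0.03 in MRM1KO, reversed to 0.0284 without MRM1KO replicate 3, and -0.64 to -0.48 in parental. With total reads, an alternative chosen after seeing the data, these ranges were -0.44 to -0.31 and -0.45 to -0.30. With the rRNAs left out the dNTP effect in MRM3KO differed from that in parental by -0.67 (adjusted p = 0.0380 in edgeR).

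In MRM2KO 3 MT-CO1 positions changed their RT-stop score by edgeR, 1 with 0.1 added in place of 1 and 3 on the linear scale. The number of windows called there was 4 with windows of 200 nucleotides, 2 with the 6 libraries alone, 0 in the 2 μM libraries, 0 by limma, 0 without position 1 (added after seeing the data) and 0 to 3 without each replicate in turn. The length difference in MRM2KO was 0.18 with the 6 libraries alone (adjusted p = 0.0344 in limma) and 0.14 to 0.24 without each replicate. A minimum median of 5 ends gave 68 MT-CO1 positions with a cleavage protection score above 0 in at least 3 libraries, the minimum for a test, and 212 scored in all 12. The other alternatives added after seeing the data, the fit of the mRNAs with its own alternatives, the mRNAs only for the dNTP levels, and the ratio around the midpoint without position 1 or a replicate, changed no call beyond those given. Causes were not tested.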
